A study of Mus musculus with 8 samples.

Results

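Genes that mark microglia, the resident macrophages of the brain, were followed across 8 mouse brain arrays: the complement genes C1qa, C1qb and C1qc, and Csf1r, Cx3cr1, P2ry12, Tmem119, Aif1, Trem2 and Tyrobp. They were chosen by symbol in the annotation of the array. Each of the 10 genes had 1 probe among the 23473 probes on the array, of which 20690 carried a gene symbol and 21583 were bright enough to be tested. All mice were male C57Bl/6J aged 9 weeks, caged in groups of 3. The control mice (n = 2) drank water and were sampled at day 0, and the other mice were given trehalose, a disaccharide of glucose, for 1 day (n = 3) or for 10 days (n = 3). Every mouse was fasted for 6 h and perfused with heparinised buffer before the brain was removed, so these conditions were common to all 3 groups. The sample labels name cerebral cortex and neocortex as the tissue, whereas the design text has the left hemisphere frozen for the arrays. No water mice were sampled at 1 or 10 days, so trehalose and time of sampling cannot be told apart in either comparison with control.

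Microglia depend for their survival on CSF1R, the receptor for colony stimulating factor 1 and interleukin 34, and survey the tissue with the fractalkine receptor CX3CR1 and the ADP receptor P2RY12. They are also the main source of C1q in the brain, whose A, B and C chains assemble into the recognition molecule that starts the classical complement cascade and tags synapses for removal. TREM2 is a receptor for lipids and lipoproteins that signals through the adaptor TYROBP, also called DAP12. TMEM119 is a surface protein of homeostatic microglia, and AIF1, also called IBA1, is the calcium-binding protein used to stain them.

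The question was whether drinking trehalose changed these homeostatic and complement transcripts. By limma, 0 of the 10 genes passed an adjusted p of 0.05 in any of the 3 comparisons, where the background over all 21583 probes was 0% as well. The largest of their differences was in C1qc, 0.859-fold the control level after 1 day of trehalose. Tyrobp and Aif1 varied most between arrays of the same group, with within-group SDs of 0.225 and 0.206 on the log2 scale, and their group means differed by at most 0.08. Levels below are log2 intensities, background-corrected and quantile normalized, and a difference of 1 is a doubling. RNA came from whole tissue, so fewer microglia and less RNA per microglial cell cannot be told apart. The labels do not say whether each array was a separate mouse, although the design text counts mice in the same numbers, and p-values measure the spread between these arrays.

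The 3 C1q genes lie next to each other on chromosome 4, in the order C1qb, C1qc, C1qa in the RefSeq table, flanked by Ephb2 and Epha8. RefSeq promoter sequences (build GRCm38.p6) matched 6 of the 10 genes. Shown here are the 200 bases before the start of C1qb and C1qc, neighbours with no established correlation (Pearson's r = -0.30). The same stretch is shown for Trem2 and Aif1, which had the highest r with Tyrobp among the 10 genes. Each is written 5′ to 3′ in the direction of the gene, and capitals mark the only match to a searched motif.
C1qb, chr4:136886201-136886400, minus strand: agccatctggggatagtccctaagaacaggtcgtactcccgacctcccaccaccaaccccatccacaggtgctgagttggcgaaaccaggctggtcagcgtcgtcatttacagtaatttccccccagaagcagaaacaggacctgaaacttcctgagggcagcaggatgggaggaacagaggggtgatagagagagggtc
C1qc, chr4:136892915-136893114, minus strand: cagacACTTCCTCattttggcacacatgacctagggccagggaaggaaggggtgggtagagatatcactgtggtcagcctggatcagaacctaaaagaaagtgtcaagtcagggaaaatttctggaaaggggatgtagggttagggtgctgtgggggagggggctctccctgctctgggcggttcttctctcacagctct
Trem2, chr17:48346201-48346400, plus strand: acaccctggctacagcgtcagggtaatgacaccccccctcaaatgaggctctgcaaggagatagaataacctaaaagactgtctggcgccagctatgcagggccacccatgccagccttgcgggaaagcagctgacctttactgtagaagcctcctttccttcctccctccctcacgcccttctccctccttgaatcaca
Aif1, chr17:35176053-35176252, minus strand: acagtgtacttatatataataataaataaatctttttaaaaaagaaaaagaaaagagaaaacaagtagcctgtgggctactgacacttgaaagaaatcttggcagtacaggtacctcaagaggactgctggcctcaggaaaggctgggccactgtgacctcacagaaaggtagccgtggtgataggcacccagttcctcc

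The motifs were searched on both strands of the 300 bases from 250 before to 50 after the start. The core of the binding site of PU.1, the transcription factor that specifies macrophages and microglia, was searched as GAGGAAGT. It was found in 1 of the 6 promoters, that of C1qc, on the opposite strand as ACTTCCTC at positions -195 to -188 from the start, and in 3.20% of all 32851 promoters. The ETS-IRF composite element, which PU.1 binds together with IRF8, was found in 0 of the 6 and in 2.72% of all promoters. The TATA box, TATAAA, was found in 0 of the 6 and in 13.6% of all promoters. The first 2 motifs have the letters GGAA in common, and a match describes the sequence only. The GC content of the printed stretches was 56% for C1qb, 53.5% for C1qc, 55.5% for Trem2 and 42.5% for Aif1, against a median of 53% over all promoters.

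All 10 probes lay above the limit set by the blank spots on all 8 arrays. Their spots were 4.17 to 27.8 times as bright as the mean blank, with Tmem119 the dimmest and C1qb the brightest. Brightness differs between probes for reasons other than transcript number, so the genes are not ranked against each other.

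C1qa, the A chain, measured 9.57 and 9.42 in the control mice, 9.52, 9.34 and 9.32 after 1 day, and 9.39, 9.28 and 9.49 after 10 days. The highest array was a control and the lowest a 10-day array, and the 3 groups overlapped. The group means were 9.50 ± 0.10 (SD, n = 2), 9.39 ± 0.11 (SD, n = 3) and 9.39 ± 0.11 (SD, n = 3). C1qa therefore read -0.11 against control at both times, with 95% intervals from -0.30 to 0.09 and from -0.31 to 0.09. These values depended on the control arrays: they were -0.033 and -0.038 without control replicate 1, and -0.18 at both times without control replicate 2.

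C1qb, the B chain, measured 9.37 and 9.61 in control, 9.68, 9.45 and 9.52 after 1 day, and 9.60, 9.55 and 9.50 after 10 days. The control arrays were farther apart than any pair within the trehalose groups. Its difference from control was 0.06 at each time, with intervals from -0.14 to 0.26 and from -0.14 to 0.27. It was -0.06 at each time without control replicate 1, and 0.18 and 0.19 without control replicate 2.

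C1qc, the C chain, measured 9.27 and 9.14 in control, 8.98, 8.98 and 9.00 across the 1-day arrays, and 9.11, 9.23 and 9.04 after 10 days. Every 1-day array lay below every other array, and the 10-day arrays overlapped the controls. The means were 9.20 ± 0.09 (SD, n = 2), 8.99 ± 0.01 (SD, n = 3) and 9.13 ± 0.10 (SD, n = 3). The 1-day difference from control was -0.22 (SE 0.063, limma unadjusted p = 0.00886, adjusted p = 1.0), a fold of 0.859 with a 95% interval from 0.776 to 0.951. From 1 to 10 days C1qc differed by 0.14 (SE 0.056, limma unadjusted p = 0.0366, adjusted p = 1.0), a fold of 1.10 from an interval of 1.01 to 1.21. At 10 days its difference from control was -0.08, with an interval from -0.22 to 0.07. Neither the 1-day difference nor that between the times passed the test over all probes. Subtracting the local background column gave -0.73 (SE 0.39) and 0.69 (SE 0.35), also without passing it. From 1 to 10 days, leaving out 10-day replicate 2 gave 0.089. The neighbouring C1qa and C1qb differed by -0.00 and 0.00 between the times.

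Csf1r, the growth factor receptor, measured 7.74 and 7.64 in control, 7.68, 7.59 and 7.81 after 1 day, and 7.63, 7.60 and 7.63 after 10 days. The 10-day arrays lay just below both controls, by 0.01 at the closest, and within the range of the 1-day arrays. Csf1r read 0.01 against control at 1 day, with an interval from -0.14 to 0.15, and -0.07 at 10 days, with an interval from -0.22 to 0.08.

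Cx3cr1, the fractalkine receptor, measured 8.47 and 8.51 in control, 8.50, 8.41 and 8.40 after 1 day, and 8.47, 8.30 and 8.29 after 10 days. The lowest arrays were 2 of the 3 at 10 days, and the third lay at the level of control. Its 10-day difference from control was -0.13 (SE 0.064, limma unadjusted p = 0.0699, adjusted p = 1.0), with an interval from -0.28 to 0.01, and its 1-day difference was -0.05.

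P2ry12, the ADP receptor, measured 7.87 and 8.00 in control, 8.06, 7.80 and 8.04 after 1 day, and 7.88, 8.02 and 8.00 after 10 days. The 1-day group held both the highest and the lowest array. P2ry12 read 0.03 against control at both times, with intervals from -0.17 to 0.24 at 1 day and from -0.17 to 0.23 at 10 days.

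Tmem119 measured 7.29 and 7.42 in control, 7.29, 7.18 and 7.30 after 1 day, and 7.34, 7.38 and 7.25 after 10 days. The lowest array was 1-day replicate 2 and the highest a control. Its difference from control was -0.10 at 1 day, with an interval from -0.25 to 0.04, and -0.03 at 10 days.

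Aif1, the calcium-binding protein, measured 8.08 and 8.10 in control, 8.07, 7.85 and 8.13 after 1 day, and 7.75, 8.07 and 8.33 after 10 days. The 10-day group held both the lowest and the highest of the 8 arrays, and its SD was 0.29 against 0.01 in control. Its differences from control were -0.08 and -0.04, with intervals from -0.44 to 0.28 and from -0.40 to 0.32.

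Trem2, the lipid receptor, measured 8.06 and 7.91 in control, 8.08, 7.87 and 7.98 after 1 day, and 7.88, 8.05 and 7.96 after 10 days. The 3 groups spanned almost the same range. Its differences from control were -0.01 and -0.02, with intervals from -0.19 to 0.17 and from -0.20 to 0.16.

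Tyrobp, the adaptor of TREM2, measured 8.27 and 8.21 in control, 8.46, 7.99 and 8.29 after 1 day, and 7.88, 8.33 and 8.35 after 10 days. One array in each trehalose group, 1-day replicate 2 and 10-day replicate 1, lay below both controls, and the others lay above them. The group means were 8.24 ± 0.05 (SD, n = 2), 8.25 ± 0.24 (SD, n = 3) and 8.19 ± 0.26 (SD, n = 3). Tyrobp read 0.01 and -0.05 against control, with intervals from -0.38 to 0.40 and from -0.44 to 0.34.

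**Figure D1:**
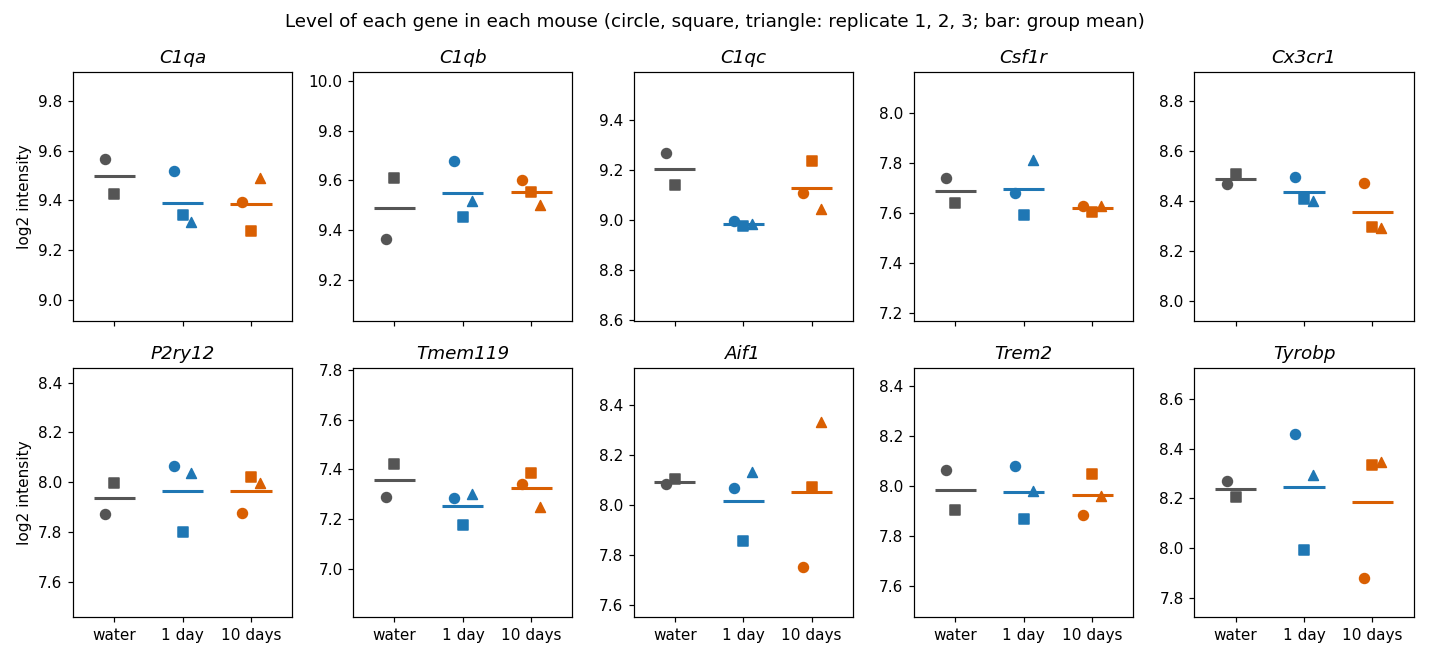
Log2 intensity (vertical axis, spanning 1 log2 unit around each gene's mean) of the 10 genes in the 2 control arrays, the 3 arrays after 1 day and the 3 after 10 days (horizontal axis), with a bar at each group mean. The C1qc points at 1 day sit together at 8.98 to 9.00, below all other arrays, while the 10-day points of Aif1 and Tyrobp spread over more than 0.4.

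After 1 day of trehalose 4 of the 10 genes read higher than control and 6 lower, with a median difference of -0.030 against -0.00030 over all 21583 probes, of which 50.3% read lower. At a limma unadjusted p under 0.05 there was 1 gene, C1qc, of the 10, where 3.65% of all probes passed. The groups did not overlap for 1 gene, again C1qc, where the background was 18.2% of all probes. A count of 1 in 10 is too small to be read against these shares. The sign of the median turned with 1 array: without 1-day replicate 2 it was 0.026, and without 1-day replicate 1 it was -0.091.

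After 10 days 2 genes, C1qb and P2ry12, read higher than control and 8 lower, with a median of -0.047 against -0.0017 over all probes, of which 51.4% read lower. None of the 10 passed a limma unadjusted p of 0.05, where 2% of all probes did. The groups did not overlap for 1 gene, Csf1r, against 13.4% of all probes. Both comparisons used the same 2 control arrays, so their values are not independent of each other. C1qa, for example, read -0.11 in each of them.

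Between 10 days and 1 day 4 genes read higher and 6 lower, with a median of -0.0032 against -0.0015 over all probes. C1qc was the 1 gene at a limma unadjusted p under 0.05, a threshold passed by 3.5% of all probes. It was also the 1 gene whose groups did not overlap, against 8.4% of all probes. The test across all features thus made 0 calls among the 10 genes and among all probes in each comparison, with 787, 432 and 756 probes at an unadjusted p under 0.05.

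The intervals show which sizes of change these arrays leave possible. The median half-width of the 95% interval over the 10 genes was 0.189 in both comparisons with control and 0.169 between the times, against 0.130 and 0.117 over all probes. It was widest for Tyrobp, at 0.391 and 0.350. The number of arrays limits the precision.

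**Figure D2:**
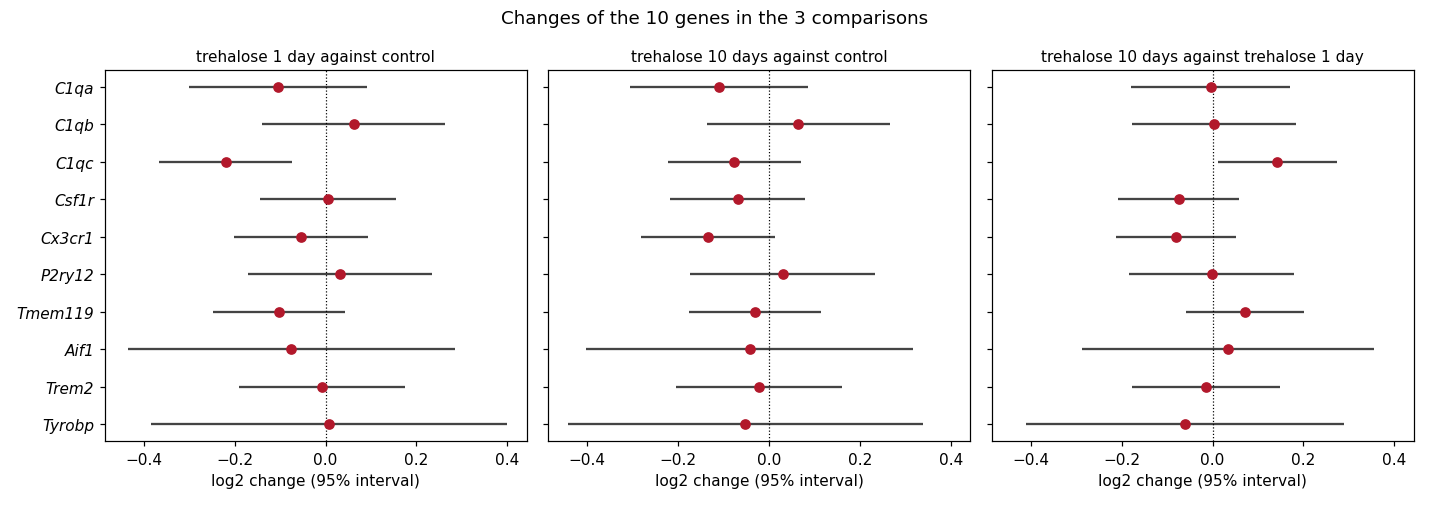
Log2 change (horizontal axis) of each gene in the 3 comparisons, with its limma 95% interval as a bar. The interval of C1qc lies below 0 at 1 day against control (-0.37 to -0.07) and above 0 between the times (0.01 to 0.27), and every other interval includes 0.

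Spread within groups set 2 of the genes apart from most of the array. The within-group SD of Tyrobp was 0.225, larger than that of 98.2% of the tested probes, and that of Aif1 was 0.206, larger than 97.4%. P2ry12 followed at 0.111, C1qb at 0.110, C1qa at 0.107 and Trem2 at 0.098, against a median of 0.0639 over all probes. The SDs of Csf1r, Cx3cr1, C1qc and Tmem119 lay between 0.074 and 0.076. The 10 genes were brighter than most probes: the median probe of an array was 2.45 to 2.87 times as bright as the mean blank. The background correction compresses the spread of dim probes, and no share at matched brightness was computed. In 1-day replicate 2 all 10 genes lay below their own means over the 8 arrays, with a median of -0.11, whereas in 1-day replicate 1 the median was 0.091 and 8 of 10 lay above. The controls had medians of 0.049 and 0.042, with 7 genes above in each, and the 10-day arrays -0.030, 0.042 and -0.023.

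**Figure D3:**
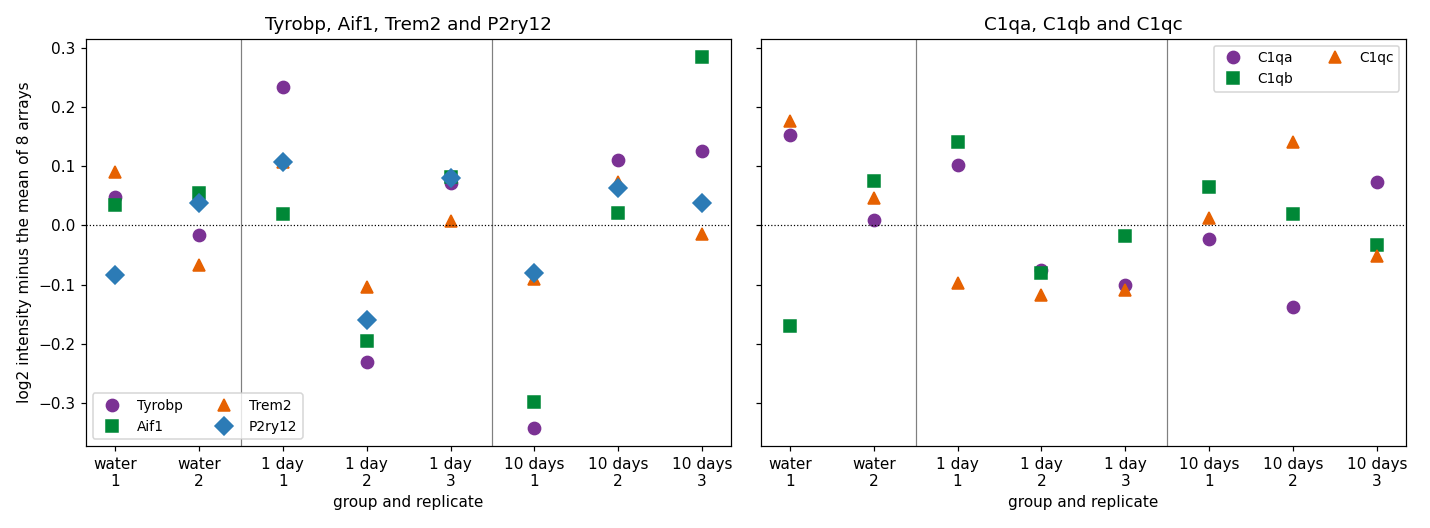
Log2 intensity minus each gene's mean over 8 arrays (vertical axis) by group and replicate (horizontal axis), with Tyrobp, Aif1, Trem2 and P2ry12 on the left and the 3 C1q genes on the right. The left-hand genes are all below 0 in 1-day replicate 2 and 10-day replicate 1. The C1q genes are all below 0 in 1-day replicates 2 and 3, all above 0 in control replicate 2, and differ in sign in the other arrays.

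Correlations of the levels between arrays were computed for all 45 pairs of the 10 genes. The median Pearson's r was 0.188, against 0.0005 over all pairs of tested probes. Values ran from -0.44 to 0.82, and 31 pairs were positive. Of the pairs, 15.6% reached an r of 0.5, against 11.9% of all pairs of tested probes. By an exact two-sided permutation test 3 pairs, each of them with Tyrobp, had an unadjusted p under 0.05, and 0 of 45 passed after adjustment. The share of all probe pairs under that p was not computed, so the count is not read as a result about these genes.

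The genes of TREM2 and its adaptor had the highest r of the 45 pairs. Trem2 and Tyrobp had r = 0.82 (exact permutation p = 0.00804, adjusted p = 0.277) over 8 arrays. By rank, their rho was 0.76 (exact permutation p = 0.0368, adjusted p = 0.963). Without the 2 arrays farthest from the median of Tyrobp, 1-day replicate 2 and 10-day replicate 1, r was 0.65, and with group means removed it was 0.82.

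Aif1 and Tyrobp had r = 0.82 (exact permutation p = 0.0123, adjusted p = 0.277) and rho = 0.48 (exact permutation p = 0.243). Without the same 2 arrays r was 0.039, so this relation rests on them. P2ry12 and Tyrobp had r = 0.79 (exact permutation p = 0.0188, adjusted p = 0.282) and rho = 0.69 (exact permutation p = 0.0694), and r was 0.52 without these arrays. Of all tested probes, 0.839% were correlated with Tyrobp at least as strongly as Trem2, 0.858% as strongly as Aif1 and 1.35% as strongly as P2ry12. In the other direction, 0.417% were correlated with Trem2 at least as strongly as Tyrobp. The 6 pairs among P2ry12, Aif1, Trem2 and Tyrobp, a set chosen after the values were seen, had r between 0.456 and 0.821.

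The 3 C1q chains, which are made in fixed proportion in the assembled protein, showed no established covariation of their transcripts. Their r was -0.13 for C1qa and C1qb, 0.17 for C1qa and C1qc and -0.30 for C1qb and C1qc, with a mean of -0.089, and -0.15 with group means removed. The exact permutation p was 0.753, 0.676 and 0.468. Both negative signs turned without the 2 arrays farthest from the median of C1qb: r was then 0.13 for C1qa and C1qb and 0.68 for C1qb and C1qc. Their levels spanned 0.29 to 0.31 over the 8 arrays. The probes with 1 symbol most like the mean of the C1q genes, out of 7813 at or above the median level and SD, were Evl (r = 0.950, rho = 0.952), Gabrd (0.944, 0.833), Ptpn5 (0.941, 0.833), Smpd3 (0.939, 0.786) and Trank1 (0.935, 0.786), as a description over 8 arrays. Gabrd encodes a GABA receptor subunit and Ptpn5 a phosphatase rich in striatal neurons.

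**Figure D4:**
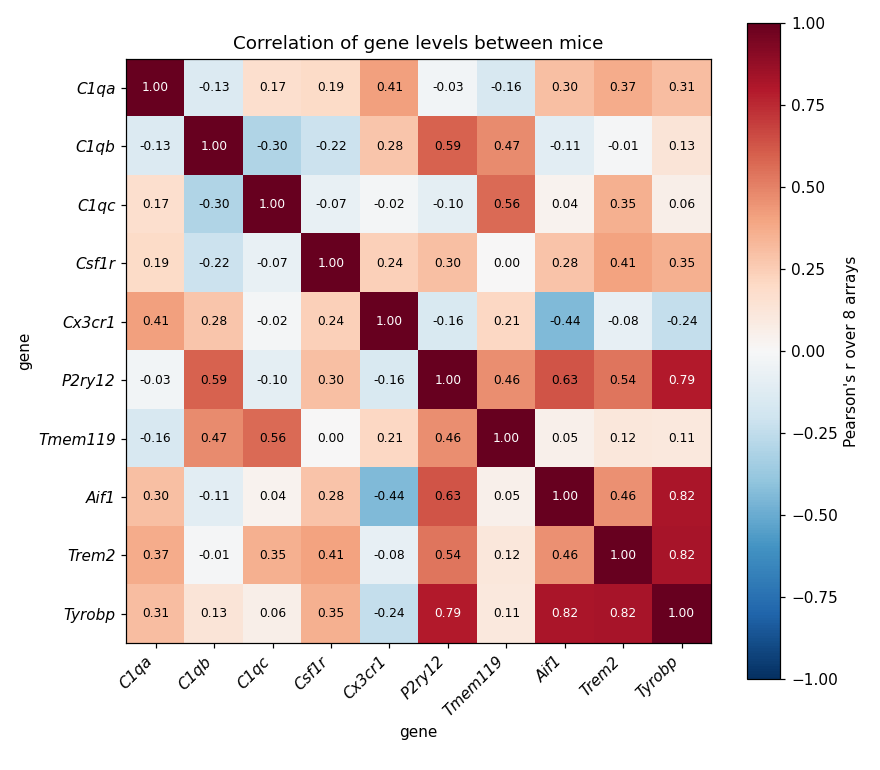
Pearson's r over 8 arrays for each pair of the 10 genes (both axes), from blue at -1 to red at 1. Tyrobp has its highest values with Aif1 (0.82), Trem2 (0.82) and P2ry12 (0.79), and the 3 C1q genes lie between -0.30 and 0.17 with each other.

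The other genes of these pathways were read in the same fit, and 0 probes of any list described here passed an adjusted p of 0.05 by limma in any comparison. Of 32 other complement genes, 27 were on the array and tested, 14 of them higher and 13 lower than control at each time, with medians of 0.0049 and 0.00054. Lrp1, an endocytic receptor that takes part with calreticulin in C1q-mediated uptake, read -0.13 (SE 0.067, limma unadjusted p = 0.0954) at 1 day and 0.18 (SE 0.060, limma unadjusted p = 0.0173) from 1 to 10 days. Complement C4b, which is cleaved downstream of C1q, read 0.08 at 1 day and 0.03 at 10 days, and the receptor chain Itgam read -0.06 and -0.02. Both probes were dim, at 6.59 and 6.38 in control, where the background correction compresses differences.

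Of 25 other homeostatic microglia genes 22 were tested, with 23 probes, and 18 probes read lower and 5 higher than control at each time. The medians were -0.053 and -0.049, against -0.00030 and -0.0017 over all probes, and 12 probes read higher and 11 lower between the times. That last split was not stable: 3 of 23 read lower in the authors' table, and 7 without 1-day replicate 1. Several other cell types of the tissue read lower at 1 day too, but not all. Of the neuronal probes 11 of 15 were lower, with a median of -0.10, of the endothelial probes 9 of 11, with a median of -0.064, of the astrocyte probes 8 of 12, with a median of -0.049, and of the oligodendrocyte precursor probes 5 of 7, with a median of -0.023. At 10 days these medians were -0.051, -0.012, -0.017 and -0.020, with 9 of 15, 6 of 11, 6 of 12 and 6 of 7 probes lower. Oligodendrocyte probes were 6 higher and 6 lower at 1 day, and 7 higher and 5 lower at 10 days. Of the choroid plexus and ependymal probes, 7 of 8 were higher at 1 day and 8 of 8 at 10 days. Whether the homeostatic genes differed from these cell types was not tested. At a limma unadjusted p under 0.05 there were 3 probes at 1 day, 1 at 10 days and 2 between the times, against the 3.65%, 2% and 3.5% of all probes given above. Mertk, a phagocytic receptor, read 8.29 in control, 8.11 at 1 day and 8.24 at 10 days, a 1-day difference of -0.18 (SE 0.048, limma unadjusted p = 0.00567). P2ry13, a relative of P2ry12, read -0.20 and -0.13 against control, and Gpr34 and Siglech read -0.06 and -0.03 at 1 day. The microglial transcription factor genes Spi1, which encodes PU.1, and Irf8 read -0.07 and -0.00 at 1 day and -0.08 and 0.02 at 10 days. The Irf8 probe, at 6.26 in control, lay near background. Sparc went the other way, at 0.53 (SE 0.15, limma unadjusted p = 0.00810) at 1 day and 0.25 at 10 days, and is made by several cell types besides microglia.

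A further list held ligands of these receptors together with related receptors and partners. All 13 of its genes were tested, with 6 higher and 7 lower at 1 day, 5 and 8 at 10 days, and 0 at an unadjusted p under 0.05 by limma at either time. Csf1 and Il34, the ligands of CSF1R, read 0.00 and -0.11 at 1 day and -0.08 and -0.11 at 10 days. Cx3cl1, the neuronal ligand of CX3CR1, read -0.15 and -0.05, and Pros1, a ligand of MERTK, read -0.13 and -0.01.

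Partners of TREM2 and TYROBP were 16 tested genes of 18, with 17 probes, of which 5 read higher and 12 lower at 1 day, and 9 and 8 at 10 days. The kinase Syk, which docks on phosphorylated TYROBP, read 0.06 and -0.00 against control. Apoe, a lipoprotein ligand of TREM2, read 13.64 in control, 13.64 at 1 day and 13.75 at 10 days, a 10-day difference of 0.10 (SE 0.044, limma unadjusted p = 0.0480). Sirpa, the receptor for the CD47 signal that restrains phagocytosis, read -0.11 at 1 day and 0.15 (SE 0.045, limma unadjusted p = 0.0101) from 1 to 10 days.

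Of 26 genes induced in disease-associated microglia 25 were tested, 11 higher and 14 lower at 1 day, and 13 higher and 12 lower at 10 days. Clec7a and Cst7, which mark that state, read -0.00 and -0.01 at 1 day and 0.04 and -0.04 at 10 days. Clec7a, at 6.00 in control, lay near background, where the background correction compresses differences. The lowest unadjusted p at 1 day were for Ank (-0.17) and Ctsz (-0.17). Of 22 cytokine and inflammatory genes 18 were tested, and Il6, Nos2 and Il1rn lay below the limit on all arrays. At 1 day 9 probes of this list read higher and 9 lower than control, and at 10 days 10 and 8. The medians of the list were -0.0056 and 0.0069. Il1b read 0.01 at both times, and Tlr2, the receptor for bacterial lipoproteins, read 0.11 (SE 0.034, limma unadjusted p = 0.0130) and 0.10 (limma unadjusted p = 0.0208). Il1b and Tlr2 also lay near background, at 6.25 and 5.92 in control. Ptgs2, the inducible cyclooxygenase that neurons also express, read 0.13 and 0.27 (SE 0.097, limma unadjusted p = 0.0263). Its probe was dim too, at 6.63 in control.

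**Figure D5:**
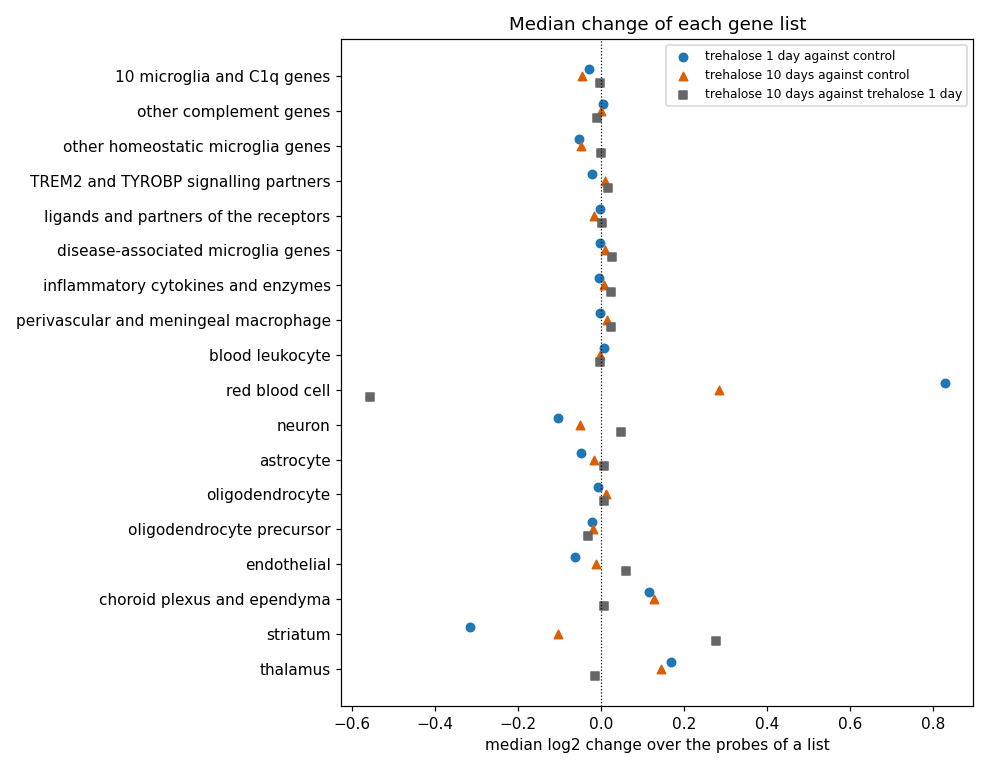
Median log2 change (horizontal axis) over the tested probes of each gene list (vertical axis) in the 3 comparisons. The microglial and complement lists lie between -0.053 and 0.026, while the red blood cell list reaches 0.83 and the striatal list -0.32 at 1 day.

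Markers of red blood cells and of striatum differed more between arrays than the 10 microglial genes did. Probes of perivascular macrophages, which share several microglial genes, averaged 6.33 to 6.36 in control, 6.30 to 6.38 at 1 day and 6.33 to 6.40 at 10 days, with 4 of 10 higher than control at 1 day and 7 of 10 at 10 days, and Ccl24 below the limit. Blood leukocyte probes averaged 6.46 to 6.49, 6.46 to 6.56 and 6.46 to 6.48, with 10 of 16 higher at 1 day, 8 of 16 at 10 days, and Nkg7 and Chil3 below the limit. Red blood cell probes averaged 7.34 to 8.41, 8.15 to 9.10 and 7.19 to 9.28, with 5 of 5 higher at each time.

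The 1-day array with all 10 genes below their means, replicate 2, also had the lowest striatal average and the highest thalamic one. Striatal probes averaged 8.69 to 9.01 in control, 7.91 to 9.01 at 1 day and 8.75 to 8.80 at 10 days, with 7.91 in that array and 0 of 10 higher than control at 1 day. Thalamic probes averaged 7.50 to 7.65, 7.68 to 7.90 and 7.68 to 7.75, with 7.90 in that array, 12 of 13 higher at each time, and a Tcf7l2 probe below the limit. Choroid plexus and ependymal probes averaged 7.87 to 8.06, 7.92 to 8.31 and 8.06 to 8.13, with 8.31 in that array. Oligodendrocyte probes averaged 10.11 to 10.14, 10.05 to 10.23 and 10.10 to 10.20, with 10.23 in that array. Neuronal probes averaged 10.36 to 10.51, 10.33 to 10.39 and 10.37 to 10.42, and transcripts of striatum and thalamus were measured in tissue labelled as cortex. Across the 8 arrays as wholes, correlations of log2 intensity lay between 0.994 and 0.998. Each list was also summarised per array by the median deviation of its probes from their means. Over the 8 arrays this had r with the mean of the C1q genes of 0.81 for striatum, -0.76 for thalamus, -0.65 for choroid plexus, -0.36 for oligodendrocytes and 0.61 for neurons. With Tyrobp, r was 0.59, -0.45, -0.56, -0.81 and -0.013 in the same order, as a description with no p. The part of these regional differences in the levels of the microglial genes was not tested.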

How the data were processed

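RNA of mouse brain was hybridised to 8 one-colour Cy5 arrays. The deposited scanner files give, per the file headers, a spot intensity that is the median of its pixels, joined over several gains, with a local background and flags. A second table of the authors holds processed intensity on a linear scale and was used as an alternative. Probes were named from GEO's platform annotation, with symbols updated through gene identifiers for 20556 probes. In R 4.3.3 with limma 3.58.1, spot medians were corrected by normexp (offset 50, fitted on all spots), 10 spots with a failed flag were set to missing, and arrays were quantile normalized in log2. The local background, which tracked the spots at an r of 0.943 to 0.985 per array, was left in. The offset compresses differences of dim probes. A probe was tested if above the mean plus 2 SD of 2736 blank spots on at least 2 arrays, which held for 86.3% to 92.1% of probes per array. All 8 arrays entered 1 fit of 3 group means (5 residual degrees of freedom, eBayes), with Benjamini-Hochberg adjustment over 21583 probes at 0.05. The fit was tested on simulated data with independent noise for each probe and array. Structure shared between arrays, as in same-numbered arrays or regional markers, was not part of that simulation. Correlations used exact permutation over 8 arrays in Python 3.11.15 with scipy 1.17.1. Besides the 10 genes, the text names up to 2 probes of a list with the lowest p in a comparison and the 5 probes most like the mean of the C1q genes. Itgam, P2ry13, Gpr34, Siglech, Spi1, Irf8, Syk, Clec7a, Cst7 and Il1b were named for their roles, after their values were seen. The 10 genes and the lists were chosen with earlier results of these data known. Alternatives in background, scaling, filter, flags, source, variance, weights, samples, covariate and block are given in the closing section. No source used here names a scan date or a slide.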

Additional observations from a re-analysis of the deposited data

How the results depend on the processing

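No gene of the 10 passed an adjusted p of 0.05 under any alternative run. Over 13 alternatives other than leaving out an array, 367 of 390 differences of these genes kept their sign, 20 turned while smaller than their own SE, and 3 reversed. These 3 came from subtracting the local background column: Tmem119 became 0.16 at 1 day and -0.31 between the times, and Csf1r 0.013 at 10 days. That setting also moved the median of the 10 genes to 0.095 at 1 day and to -0.12 between the times, the mean r of the C1q pairs to -0.40 the r of Tyrobp to 0.064 with Trem2 and -0.67 with P2ry12, C1qc to -0.73 at 1 day and 0.69 between the times, C1qa to -0.43 at 1 day and -0.85 at 10 days, and C1qb to 0.58 and 0.37; the cause was not tested. Leaving out 1 array turned 35 of 240 differences, each smaller than its SE. It gave medians from -0.091 to 0.026 at 1 day, -0.092 to -0.011 at 10 days and -0.058 to 0.053 between the times, and mean C1q r from -0.24 to 0.14. The 1-day difference of C1qc ran from -0.28 without control replicate 2 to -0.15 without control replicate 1. On leaving out an array, the number of other homeostatic probes that read lower ran from 16 to 19 of 23 at 1 day, 14 to 18 at 10 days and 7 to 13 between the times. Under the other alternatives it ran from 15 to 19, 14 to 18 and 3 to 12. Over all probes, counts past the threshold ran from 0 to 2 when an array was left out (2 at 1 day and 2 at 10 days without control replicate 1, 0 otherwise), none of them among the 10 genes. Subtracting the blank mean gave 1 at 10 days and 1 between the times, as did trend and robust variances.

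With the replicate number as a block, 0 probes passed in each comparison, C1qc read -0.20 at 1 day, and the medians of the 10 genes were -0.036, -0.078 and -0.0032, so no call changed. Deviations of same-numbered arrays correlated at -0.026 to 0.26, with a median of 0.22 and 6 of 7 pairs over 0.1. Pairs with different numbers had a median of -0.079, with 2 of 14 over 0.1. Of the 8 arrays, 7 correlated best with their own number. The deviations of the 2 controls mirror each other, so their correlations come with opposite signs. The numbers were not established as pairs, and what same-numbered arrays share was not tested.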

Other observations

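Each description in the labels starts with a number from 1 to 8 that crosses the groups and is not explained there. It rises with the replicate number: replicate 1 arrays hold 1 to 3, replicate 2 arrays 4 to 6, and replicate 3 arrays 7 and 8. A relation with this number is therefore not separate from the likeness of arrays with the same replicate number. Over 8 arrays Aif1 had r = 0.66 with it (exact permutation p = 0.0679, adjusted p = 0.543 over the 10 genes) and rho = 0.83 (exact permutation p = 0.0154, adjusted p = 0.154), with r = 0.74 without numbers 1 and 8. Cx3cr1 had r = -0.62 (exact permutation p = 0.109, adjusted p = 0.543). None of the 10 genes passed the adjustment.

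The probes most like Tyrobp over the 8 arrays, searched after the values were seen, were Tesk1 (r = 0.970), Nat8f1 (0.962), Tcof1 (0.952), Art3 (0.936) and Gng10 (0.933), ahead of Trem2 and Aif1.

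Olfml3, a homeostatic microglia gene, had 2 probes that disagreed. One read -0.18 against control at both times (limma unadjusted p = 0.0465 and 0.0474), and the other, near background, read 0.04 and -0.05.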
